A study of Mus musculus with 8 samples.

Results

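*Klk6*, *Ptgds*, *Hopx*, *Anln*, *Il33*, *Car2*, *Apod*, *S100b* and *Enpp6* are genes whose transcripts are known to separate subtypes of mature oligodendrocytes. These 9 genes were taken by name out of 20354 genes in the authors' table of oligodendrocytes. They were followed in 15604 oligodendrocytes of 8 single-cell libraries made on the 10× platform. All mice were 24 months old and, per the study's list of animals, male, and every library came from pooled tissue of more than 1 animal. Wild-type C57BL/6 mice (C57BL/6J in the study's methods) gave 2 libraries of gray matter, the frontal cortex, and 2 of white matter, taken from the corpus callosum, the optic tract and the medial lemniscus. *Rag1*-/- mice, which lack mature T and B cells, gave 1 library of gray and 3 of white matter. The labels place wild-type libraries 1 in batch 1 and wild-type libraries 2 in batch 2. They place the *Rag1*-/- gray matter library and white matter library 1 in batch 1, and *Rag1*-/- white matter libraries 2 and 3 in batch 2. Within *Rag1*-/-, tissue and batch are thus partly mixed. The labels name the *Rag1*-/- strain NOD.129S7(B6)-Rag-1tm1Mom/J, whereas the study's methods describe *Rag1*-/- mice on a C57BL/6J background. All tissue was dissociated with the transcription inhibitor actinomycin D, and live cells were sorted by exclusion of SYTOX Blue. Each wild-type gray matter library was taken to share its mice with the white matter library of the same number. The same was assumed for the *Rag1*-/- gray matter library and *Rag1*-/- white matter library 1. These mouse pools were set from genotype and number in the sample titles, which do not name the animals. Genotype coincides with the experiment, the version of the alignment software named in the study's methods, the limits on cell quality and the list of genes counted, and these cannot be told apart.

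Oligodendrocytes wrap axons with myelin and support them metabolically. After maturation they do not form a uniform population. In the adult mouse they range between cells rich in *Ptgds*, frequent in gray matter, and cells rich in *Klk6*, frequent in white matter and spinal cord. Co-detection of both transcripts in single cells therefore tells how sharply these ends are separated.

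Of the genes, 5 encode enzymes or secreted carriers. *Klk6*, at chr7:43824499-43832030 on the plus strand, encodes kallikrein-related peptidase 6, a secreted serine protease that can cleave myelin proteins. *Ptgds*, at chr2:25466709-25470046 on the minus strand, encodes lipocalin-type prostaglandin D synthase, which makes prostaglandin D2 and also carries lipophilic molecules. *Enpp6*, at chr8:46986887-47096762 on the plus strand, encodes a choline-specific phosphodiesterase that also marks oligodendrocytes at the onset of myelination. *Apod*, at chr16:31296192-31314808 on the minus strand, encodes the lipid carrier apolipoprotein D. *Car2*, at chr3:14886273-14900770 on the plus strand, encodes cytosolic carbonic anhydrase 2. The other 4 genes act inside the cell or as a signal. *S100b*, at chr10:76253853-76261159 on the plus strand, encodes a calcium-binding protein best known from astrocytes. *Hopx*, at chr5:77086988-77115121 on the minus strand, encodes an atypical homeodomain protein without DNA binding of its own. *Anln*, at chr9:22332012-22389188 on the minus strand, encodes anillin, which binds actin and septins and is found in septin filaments of mature myelin. *Il33*, at chr19:29925114-29960718 on the plus strand, encodes an alarmin cytokine stored in the nucleus. Positions are on GRCm38 and come from GENCODE vM21.

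RefSeq promoters, here the 250 bases before a transcription start, were found for 8 of the 9 genes, all but *Car2*. The sequences of *Klk6*, *Ptgds* and *S100b* are shown, since these genes marked the opposite ends of the range. Each is written 5′ to 3′ on the strand of its gene. Bases that GENCODE places in an exon of the same gene were left out. The *Ptgds* stretch lies before the start of 1 GENCODE transcript and within an intron of a longer one, whose start is the end of the gene given above. Capitals mark the letters ACAAAG, a core recognised by SOX factors such as SOX10, and the E-box CANNTG, recognised by basic helix-loop-helix factors such as OLIG2, on either strand.
Klk6, chr7:43824294-43824498, plus strand: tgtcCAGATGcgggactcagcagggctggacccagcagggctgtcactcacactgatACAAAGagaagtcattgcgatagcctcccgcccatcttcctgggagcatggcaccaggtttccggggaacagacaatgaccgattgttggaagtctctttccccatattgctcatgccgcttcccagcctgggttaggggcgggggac
Ptgds, chr2:25469843-25469999, minus strand: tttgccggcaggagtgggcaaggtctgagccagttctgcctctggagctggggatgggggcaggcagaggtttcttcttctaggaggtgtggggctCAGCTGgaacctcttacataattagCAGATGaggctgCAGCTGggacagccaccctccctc
S100b, chr10:76253586-76253835, plus strand: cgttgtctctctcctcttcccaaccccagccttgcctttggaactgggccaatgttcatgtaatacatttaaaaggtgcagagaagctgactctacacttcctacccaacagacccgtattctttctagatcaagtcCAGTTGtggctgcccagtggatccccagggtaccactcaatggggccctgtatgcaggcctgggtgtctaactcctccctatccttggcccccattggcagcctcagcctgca
The *Klk6* stretch held 1 SOX core and 1 E-box, the *Ptgds* stretch 0 SOX cores and 3 E-boxes, and the *S100b* stretch 1 E-box. Over the full 250 bases, the SOX core was present in 16.5% and the E-box in 66.2% of 32851 RefSeq promoters. Among the 8 genes, the SOX core occurred before *Klk6* and *Apod* alone. The letters CTGGCAC, from the motif of the myelin factor MYRF, were present in 4.19% of promoters and in 0 of the 8. A match describes letters in this window and is not evidence of a bound site.

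The oligodendrocytes of a library numbered 284 to 4106, with 2754274 to 44269555 UMIs (unique molecular identifiers, which count captured RNA molecules). Median UMIs per cell were 8669 to 12925.5. Of 15583 distinct barcodes, 21 occurred in more than 1 library, with at most 5 shared by any pair of libraries. Levels are given as CPM, the UMIs of a gene per 1000000 UMIs of the cells summed, and as the share of cells with at least 1 UMI of it after every cell was thinned at random to 2000 UMIs. Oligodendrocyte markers summed to 40411 to 47246 CPM in every library. Astrocyte markers summed to 259 to 310 CPM in gray and 95.8 to 148 CPM in white matter. Microglial markers ranged from 58.2 to 569 CPM, highest in wild-type gray matter library 1 (569) and wild-type white matter library 1 (352). Choroid plexus markers summed to 1.09 to 8.78 CPM in gray and 19.4 to 33.0 CPM in white matter, and ependymal markers to 9.61 to 17.1 and 18.9 to 31.1 CPM. Newly formed oligodendrocyte markers summed to 213 to 353 CPM. Markers of OPCs (oligodendrocyte precursor cells), endothelial cells, fibroblasts, T cells and neurons stayed below 10 CPM each. *Rag1* itself was at 0 to 0.520 CPM in wild-type and 1.14 to 2.38 CPM in *Rag1*-/- oligodendrocytes. Reads from the 3′ end of a transcript do not show whether the deleted coding part is present, so these values do not check the labels. In the tables of all cell types, 277 of 8726 wild-type and 14 of 20905 *Rag1*-/- cells had T-cell markers.

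The authors sorted oligodendrocytes into 8 clusters, Oligo1a to Oligo1c, Oligo2a to Oligo2c, age-related oligodendrocytes (ARO) and interferon-responsive oligodendrocytes (IRO). Because the clusters were built from the expression of the same cells, the levels of the genes per cluster are a description and were not tested. A cluster was used in a library where it had at least 20 cells, which left 8 libraries for Oligo1a, Oligo1b, Oligo1c and Oligo2b, 7 for Oligo2a, 5 for Oligo2c and ARO, and 4 for IRO. Oligo2c made up 0.0894% to 0.352%, ARO 0% to 0.352% and IRO 0% to 0.447% of the oligodendrocytes of a gray matter library. Oligo2a cells had the highest median UMIs, 14478 per cell, and Oligo1a cells the lowest, 8561.5.

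*Klk6* was highest in Oligo2c (910 ± 323 CPM, SD, n = 5 libraries) and Oligo2a (722 ± 215, n = 7), whose ranges over libraries overlapped. Oligo2c was the higher of both in 3 of 5 libraries, so their order was not stable. ARO followed at 287 ± 99.9 CPM (n = 5), below Oligo2a in all 5 libraries with no overlap. *Klk6* was low elsewhere. It reached 70.5 ± 27.6 CPM in IRO, 53.5 ± 32.3 in Oligo2b, 22.5 ± 15.7 in Oligo1b, 9.72 ± 8.03 in Oligo1c and 8.58 ± 7.40 in Oligo1a. The IRO libraries are all of white matter, where Oligo2b had 73.3 ± 22.5 CPM (n = 5).

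*Ptgds* ran the other way. It was highest in Oligo1a (23542 ± 13256 CPM, n = 8) and Oligo1b (19290 ± 9198, n = 8), with Oligo1a higher in 7 of 8 libraries but overlapping ranges. The spread in Oligo1a came from 2 libraries, with 47996 CPM in wild-type gray matter library 1 and 40797 CPM in wild-type white matter library 1, against 13828 to 21280 CPM in the other 6. IRO, Oligo1c and ARO held an intermediate level of 5888 to 6827 CPM, and their ranges overlapped. IRO lay above Oligo1c in all 4 libraries with both, whereas Oligo1c, whose mean was the higher, lay above ARO in 1 of 5, so the order of the means is not the order within libraries. Oligo2b had 4006 ± 2043 CPM, Oligo2c 1033 ± 171 and Oligo2a 648 ± 544. Oligo2c lay below Oligo2b in all 5 libraries without overlap.

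*S100b*, *Hopx*, *Enpp6* and *Anln* shared the order Oligo2a, Oligo2c, Oligo2b at the top and had Oligo1a at the bottom. The drop was steepest for *S100b*, from 1686 ± 412 CPM in Oligo2a to 861 ± 161 in Oligo2c and 247 ± 120 in Oligo2b, without overlap at either step, and on to 25.4 ± 9.55 in Oligo1a. *Hopx* fell from 979 ± 184 CPM in Oligo2a to 38.5 ± 37.0 in Oligo1a. *Enpp6* went from 517 ± 58.8 to 33.8 ± 28.0 CPM and *Anln* from 1510 ± 140 to 379 ± 72.5 CPM between the same clusters. For these last 3 genes Oligo2a and Oligo2c overlapped.

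ARO cells combined *Klk6* with low levels of 4 genes that accompany it in Oligo2a and Oligo2c. In ARO, *S100b* was at 59.9 ± 35.9 CPM, *Hopx* at 125 ± 57.9, *Enpp6* at 75.8 ± 36.0 and *Anln* at 424 ± 76.3 (n = 5 each), all below Oligo2b. *Apod* was different, with 6744 ± 2830 CPM in ARO, whose 5 libraries are all of white matter. Oligo2b had 6767 ± 1867 CPM in the same 5 libraries, and 5357 ± 2417 over all 8 libraries of both tissues. With a UMI of *Klk6* in 19.0% ± 5.15 of cells and of *Ptgds* in 94.0% ± 2.99, ARO joined a sizeable *Klk6* share to a near-complete *Ptgds* share. IRO was alike with fewer *Klk6*-positive cells. There 8.06% ± 5.46 of cells held both genes, 2.56% ± 2.56 *Klk6* alone and 88.1% ± 5.52 *Ptgds* alone (n = 4).

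*Il33* was highest in ARO (2043 ± 186 CPM) and IRO (1801 ± 158). The Oligo1 clusters followed at 1366 to 1454 CPM, then Oligo2b at 1277 and Oligo2c at 1146, with overlap between all of these neighbours. It was lowest in Oligo2a (534 ± 120), without overlap between Oligo2c and Oligo2a. *Car2* did not follow the range from Oligo1 to Oligo2. It varied little, from 3919 ± 775 CPM in Oligo1a to 5340 ± 616 in IRO, and every neighbouring pair of clusters overlapped. *Apod* was highest in Oligo2c (17197 ± 4875 CPM), above Oligo2a (10612 ± 5393) in all 5 shared libraries, and lowest in Oligo1c (3005 ± 1166) and Oligo1a (2671 ± 1070). In Oligo1b its mean of 6365 CPM was raised by wild-type white matter library 1, with 23420 CPM against 1950 to 5745 in the other libraries.

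**Figure D1:**
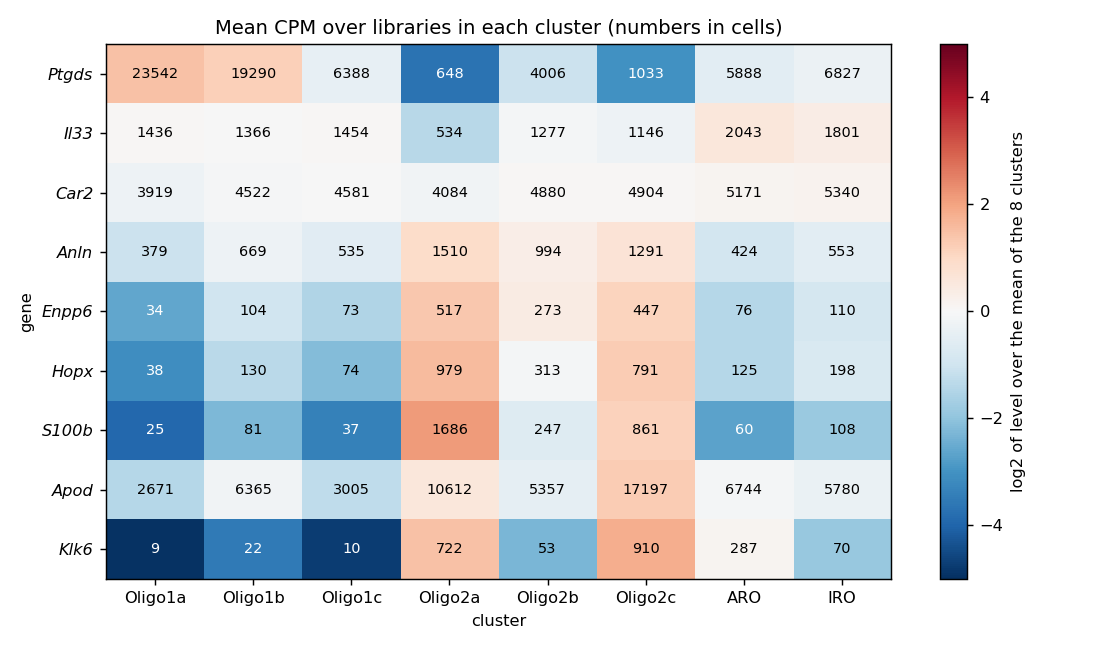
Mean CPM of each gene (rows) in each oligodendrocyte cluster (columns), over 4 to 8 libraries, with the colour giving the log2 of that level over the mean of the 8 clusters. *Ptgds* falls from 23542 CPM in Oligo1a to 648 in Oligo2a, while *Klk6*, *S100b*, *Hopx* and *Enpp6* are highest in Oligo2a and Oligo2c.

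Across the 53 sums of a library and a cluster, with the mean of each library taken off, Pearson's r of log2(CPM + 1) was −0.82 between *Klk6* and *Ptgds*, 0.84 between *Klk6* and *S100b*, 0.98 between *Hopx* and *Enpp6*, 0.73 between *Il33* and *Ptgds*, −0.79 between *Il33* and *S100b* and 0.13 between *Klk6* and *Car2*. These values describe sums that share libraries and clusters. Over 7874 genes compared in the same way, the gene nearest to *Klk6* was *Trf* (r = 0.91), which encodes transferrin, the iron carrier made by oligodendrocytes. Next came *Mmd2*, *Mfsd14a*, *Lmna* and *Tspan9* (0.89 to 0.90). The nearest to *Ptgds* was *Apoe* (0.94), the main lipoprotein of the brain, then *Clmn*, *Mt1*, *Pcsk2* and *Dag1* (0.91 to 0.93). *Enpp6* had *Tln2* (0.98) and *Hopx* as its nearest genes, *S100b* had *Aven* (0.96), *Anln* had *Selenop* (0.97), *Il33* had *Opalin* (0.95), *Apod* had *Iqsec1* (0.90) and *Car2* had *Hsp90b1* (0.88).

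The first comparison asked how the genes differ between white and gray matter. In oligodendrocytes summed per library, *Klk6*, *Hopx*, *S100b*, *Apod* and *Enpp6* rose in white matter relative to gray matter. Averaged over both genotypes the rise was 1.98-fold to 7.55-fold, and 0 of the 9 genes were called lower. *Ptgds*, *Anln*, *Il33* and *Car2* did not pass the test, which does not pair the libraries of a mouse pool. The count of 5 of 9 stands against a background of 3.24% of 13069 genes called, 2.02% higher and 1.22% lower, by edgeR's quasi-likelihood test at an adjusted p of 0.05. The median log2 fold change was 0.99 over the 9 genes and 0.01 over all genes tested. The 9 genes were chosen with earlier results of these data known, so this count and median are a description and not evidence of enrichment. The samples in each group are separate libraries of pooled mice, and p-values measure the spread between these libraries. The lone *Rag1*-/- gray matter library has no spread of its own, so tests within *Rag1*-/- borrow that of the other groups.

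*Klk6*, the protease, was at 44.7 and 27.8 CPM in the wild-type gray matter libraries and 40.7 in the *Rag1*-/- one. It was at 203 and 380 CPM in wild-type and 219, 222 and 358 in *Rag1*-/- white matter. All 5 white matter libraries lay above all 3 gray matter libraries. Averaged over genotypes, white matter exceeded gray matter by 2.92 ± 0.32 on the log2 scale (SE; edgeR adjusted p = 0.0022), and within wild type by 3.10 ± 0.39 (adjusted p = 0.011). Within *Rag1*-/- the difference was 2.73 ± 0.47, which did not pass (adjusted p = 0.056).

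*Hopx*, the homeodomain protein, was at 119 and 110 CPM in wild-type and 101 in *Rag1*-/- gray matter. In white matter it was at 282 and 321 CPM in wild-type and 345, 430 and 438 in *Rag1*-/- libraries. Its groups did not overlap between tissues. On the log2 scale the averaged difference was 1.72 ± 0.12 (adjusted p = 0.00067), with 1.41 ± 0.15 in wild type (adjusted p = 0.0069) and 2.02 ± 0.19 in *Rag1*-/- (adjusted p = 0.010, all edgeR).

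*S100b*, the calcium-binding protein, was at 162 and 108 CPM in wild-type and 135 in *Rag1*-/- gray matter, and at 275 and 375 in wild-type and 424, 534 and 627 in *Rag1*-/- white matter. White and gray matter did not overlap. The averaged log2 difference was 1.65 ± 0.20 (adjusted p = 0.0032), with 1.31 ± 0.24 in wild type (adjusted p = 0.049) and 2.00 ± 0.31 in *Rag1*-/- (adjusted p = 0.036, all edgeR). The wild-type call was lost without either gray matter library, white matter library 2, the *Rag1*-/- gray matter library or *Rag1*-/- white matter library 2 or 3 (adjusted p = 0.051 to 0.35), and the *Rag1*-/- call without wild-type gray matter library 2 or *Rag1*-/- white matter library 2 or 3 (0.052 to 0.093). *Hopx* and *S100b* are also expressed by astrocytes, whose summed markers were lower in white matter (95.8 to 148 CPM) than in gray matter (259 to 310 CPM), with all 5 of 5 markers above 0 in every library. Choroid plexus-like cells held *Hopx* too, and choroid plexus markers were higher in white (19.4 to 33.0 CPM) than in gray matter (1.09 to 8.78 CPM). The part of either cell type in these differences was not tested.

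*Enpp6*, the choline phosphodiesterase, was at 125 and 106 CPM in wild-type and 101 in *Rag1*-/- gray matter, and at 155 and 203 in wild-type and 205, 251 and 287 in *Rag1*-/- white matter. White matter lay above gray matter in every library. Averaged over genotypes, the log2 difference was 0.99 ± 0.15 (adjusted p = 0.011, edgeR). Neither genotype alone passed, with adjusted p = 0.23 in wild type and 0.065 in *Rag1*-/-. Without wild-type gray matter library 2 the averaged difference was 0.94 (adjusted p = 0.064).

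*Apod*, the lipid carrier, was at 4036 and 2650 CPM in wild-type and 2107 in *Rag1*-/- gray matter, and at 9744 and 6609 in wild-type and 3963, 8630 and 8826 in *Rag1*-/- white matter. The lowest white matter library lay just below the highest gray matter library, so the tissues overlapped. That lowest library was *Rag1*-/- white matter library 1, of the same batch as the *Rag1*-/- gray matter library. The *Rag1*-/- libraries at 8630 and 8826 CPM were of the other batch. The averaged log2 difference of 1.55 ± 0.31 passed (adjusted p = 0.030, edgeR), but the call was lost when wild-type gray matter library 1 or 2 or *Rag1*-/- white matter library 2 or 3 was left out (adjusted p = 0.052, 0.11, 0.067 and 0.063).

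*Ptgds*, the prostaglandin synthase, was at 19873 and 10901 CPM in wild-type and 12794 in *Rag1*-/- gray matter, and at 12729 and 5107 in wild-type and 5853, 6147 and 5591 in *Rag1*-/- white matter. Wild-type white matter library 1 stood within the gray matter range, and the other 4 white matter libraries stood below it. In every pair of gray and white matter libraries of the same genotype and number, white matter lay below gray matter. With the mouse pool as a block the averaged log2 fold change was −0.996. That fit leaves 1 residual degree of freedom, so its SE (0.081) does not measure the spread between pairs and is not read as precision. Without the block the averaged change was −0.94 ± 0.28, which did not pass (adjusted p = 0.13, edgeR). Without wild-type white matter library 1 it was −1.33 (adjusted p = 0.0083).

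*Anln*, *Il33* and *Car2* overlapped between tissues. *Anln* ranged from 636 to 716 CPM in gray and 631 to 983 in white matter (log2 fold change 0.21 ± 0.13, adjusted p = 0.51). *Il33* ranged from 1190 to 1368 and from 1212 to 1554 CPM (0.16 ± 0.10, adjusted p = 0.50). *Car2* ranged from 4426 to 4807 and from 4392 to 4841 CPM (−0.01 ± 0.09, adjusted p = 0.98, all edgeR). In all, 4 of the 9 genes, *Klk6*, *Hopx*, *S100b* and *Enpp6*, had no overlap between 5 white and 3 gray matter libraries, against 12.5% of all genes tested.

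**Figure D2:**
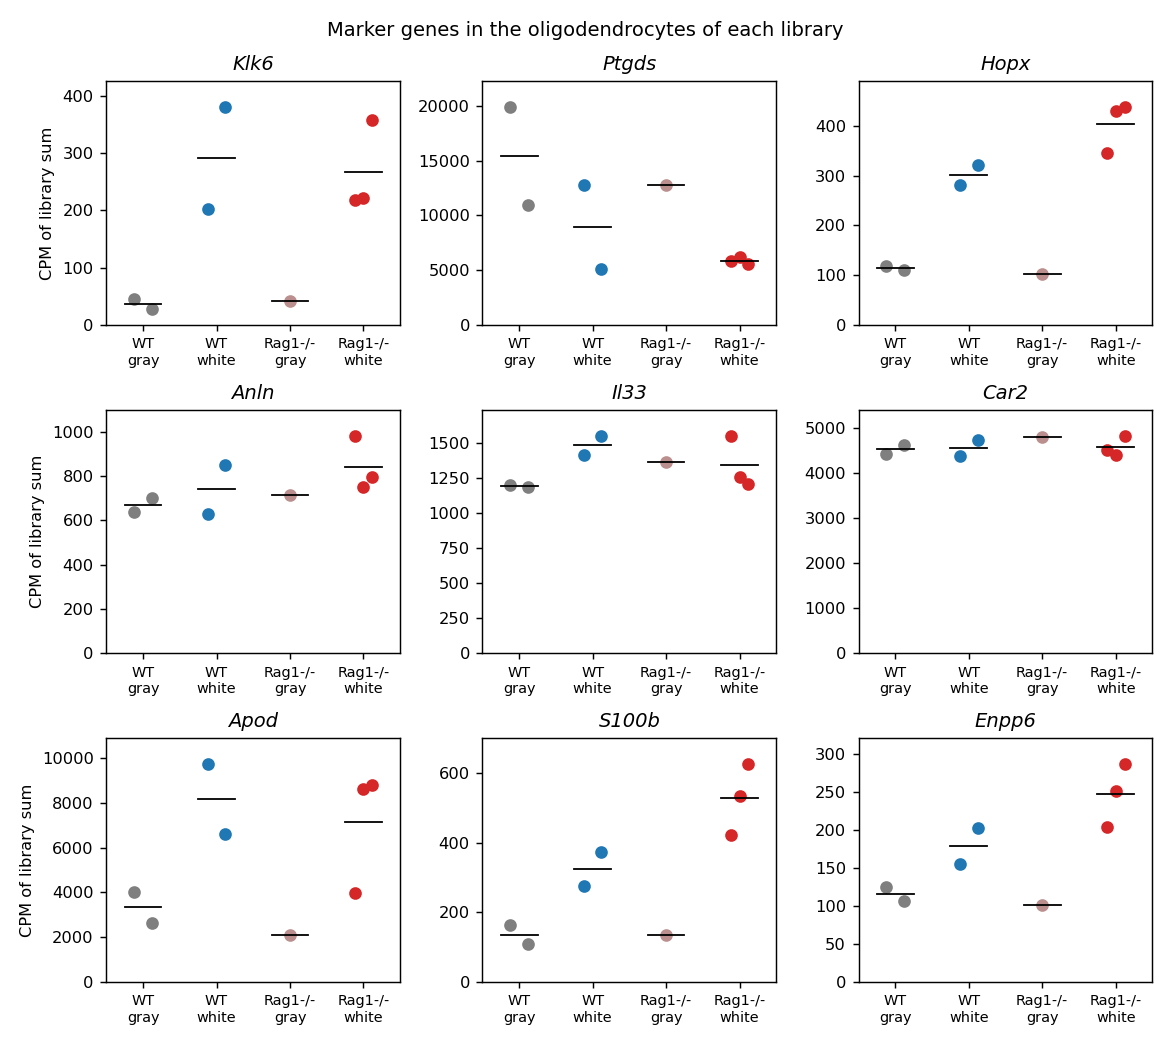
CPM of each gene in the summed oligodendrocytes of each library (points), by tissue and genotype, with a bar at the group mean and every axis starting at 0. *Klk6* lies at 27.8 to 44.7 CPM in gray and 203 to 380 in white matter, whereas *Car2* lies at 4392 to 4841 CPM in all 8 libraries.

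Within a genotype, 3 of the 9 genes rose in wild-type white matter (*Klk6*, *Hopx* and *S100b*, background 1%) and 2 in *Rag1*-/- white matter (*Hopx* and *S100b*, background 0.436%). Without wild-type gray matter library 2, 0 of the 9 passed in wild type. Without *Rag1*-/- white matter library 1, *Klk6*, *Enpp6* and *Apod* passed as well in *Rag1*-/- (adjusted p = 0.037, 0.018 and 0.019), and without either wild-type white matter library *Klk6* and *Enpp6* did. *Apod* also passed in wild type without *Rag1*-/- white matter library 1 (1.31, adjusted p = 0.041). In cells with at most 15000 UMIs, 0 passed in either genotype and 3, *Hopx*, *Klk6* and *Apod*, passed in the average, with *S100b* and *Enpp6* at adjusted p = 0.060 and 0.062. The share of all genes called was not counted in these cells. The 9 genes and the tissue effect gave 0 called differences between genotypes (edgeR, background 0%), with 1 gene, *Hopx*, at an unadjusted p under 0.05 (difference 0.60 ± 0.23, background 1.81%) and 0 called by DESeq2 (background 0.023%). With the mouse pool as a block, which leaves 1 residual degree of freedom, 7 genes were called in wild type (background 10%), 7 in *Rag1*-/- (background 5.26%) and 8 averaged over both (background 13.6%). The *Rag1*-/- contrast of this fit is 1 pair of libraries, since *Rag1*-/- white matter libraries 2 and 3 have no gray matter partner. It has no spread between *Rag1*-/- pairs, and the average includes the same pair. With 1 residual degree of freedom, the SEs of this fit do not measure the spread between pairs. No conclusion is therefore drawn from its calls in either genotype or in the average. The additions in the average were *Ptgds* (−0.996 ± 0.081), *Anln* (0.30 ± 0.07) and *Il33* (0.25 ± 0.07). In the same blocked fit, the rise of *Klk6* in *Rag1*-/- minus that in wild type was −0.86 ± 0.16, against −0.36 ± 0.55 without the block. The *Rag1*-/- side of the blocked value is 1 pair of libraries, at 40.7 and 219 CPM. Its rise lay between those of the wild-type pairs, at 44.7 and 203 and at 27.8 and 380 CPM. No difference between genotypes is therefore read from this value.

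The next question was how much of the tissue difference lay within cells of one name. White and gray matter differ in their clusters. Oligo1b made up 25.7% to 43.2% of gray and 3.99% to 11.9% of white matter oligodendrocytes, Oligo2a 3.13% to 3.87% and 9.04% to 13.4%, and Oligo2c 0.0894% to 0.352% and 6.19% to 8.48%. In gray matter 73.5% of *Klk6* UMIs came from Oligo2a and 18.9% from Oligo2b, and in white matter 44.7% came from Oligo2a, 30.2% from Oligo2c and 17.8% from ARO. For *Ptgds*, 55.8% of gray matter UMIs came from Oligo1b, and 41.7% of white matter UMIs from Oligo1a.

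Within the Oligo1 clusters summed, *Hopx* alone of the 9 genes rose in white matter (1.43 ± 0.17, adjusted p = 0.0070, background 0.906%). *Klk6* had 2.00 ± 0.47 (adjusted p = 0.11), *Apod* 1.05 ± 0.38 (0.35), *Enpp6* 0.72 ± 0.19 (0.16) and *S100b* 0.49 ± 0.19 (0.40), all without a call by edgeR. *Klk6* fell to 1.35 without wild-type gray matter library 2 and *Apod* to 0.59 without wild-type white matter library 1, and with other libraries left out they reached at most 2.49 and 1.33. Without *Rag1*-/- white matter library 1, *Enpp6* passed (0.82, adjusted p = 0.017). With the pool as a block, 6 of 9 were called (background 8.13%), with *Ptgds* lower and *Hopx*, *Klk6*, *Enpp6*, *Apod* and *Il33* higher. That fit leaves 1 residual degree of freedom, and no conclusion is drawn from its calls. In white matter *Klk6* was at 12.7, 30.9 and 14.3 CPM in Oligo1a, Oligo1b and Oligo1c, against 1.24 to 9.99 CPM in microglia-like cells. The part of this background, and of the mix of Oligo1 clusters, in these differences was not tested.

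Within the Oligo2 clusters summed, 6 of the 9 genes changed (background 3.86%, 2.3% higher and 1.55% lower). In log2 units, *Klk6* was higher by 2.48 ± 0.23 (adjusted p = 0.00018), *Apod* by 1.81 ± 0.27 (0.0034), *S100b* by 1.60 ± 0.18 (0.00066), *Hopx* by 1.58 ± 0.11 (8.1e-05) and *Enpp6* by 0.90 ± 0.14 (0.0036). *Ptgds* fell by 1.71 ± 0.18 (adjusted p = 0.00049, all edgeR), a difference in Oligo2 cells that its sums over all oligodendrocytes did not pass. *Anln* (0.43 ± 0.11, adjusted p = 0.062), *Il33* (−0.26 ± 0.10, 0.21) and *Car2* (−0.12 ± 0.09, 0.59) were not called. With the pool as a block 7 were called (background 7.95%), *Anln* being the addition. That fit leaves 1 residual degree of freedom, and no conclusion is drawn from its calls. Without *Rag1*-/- white matter library 1, *Anln* (0.37, adjusted p = 0.031) and *Il33* (−0.32, 0.036) passed. Oligo2c cells are part of the white matter sums and nearly absent from the gray matter ones. Oligo2a, which holds more *Klk6* and less *Ptgds* than Oligo2b, made up 3.13% to 3.87% of gray and 9.04% to 13.4% of white matter oligodendrocytes. For Oligo2b these shares were 24.1% to 30.2% and 9.72% to 17.9%. The sums thus mix the Oligo2 clusters differently in each tissue, and the part of this mix in the differences was not tested.

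Single clusters held by both tissues gave differences in the same direction, described here without a test. The share of all genes without overlap in single clusters was not counted, so how unusual a lack of overlap is here cannot be told. In Oligo2b, *Klk6* was at 20.5 ± 4.95 CPM in 3 gray and 73.3 ± 22.5 in 5 white matter libraries, *Hopx* at 156 ± 12.6 and 407 ± 36.4, *S100b* at 129 ± 15.5 and 317 ± 92.8, *Enpp6* at 176.5 ± 23.5 and 331 ± 37.5 and *Apod* at 3007 ± 463 and 6767 ± 1867, each without overlap. *Ptgds* in Oligo2b was lower in white matter, at 2757 ± 1045 against 6087 ± 1425 CPM, also without overlap. In Oligo2a, *Klk6* was at 490 ± 74.9 CPM in 2 gray matter libraries and 815 ± 173 in 5 white matter libraries, again without overlap, but *S100b*, *Enpp6*, *Anln* and *Ptgds* overlapped. In Oligo1a, *Klk6* was at 1.69 ± 1.46 and 12.7 ± 6.15 CPM. Microglia-like cells had 0 to 1.70 CPM of it in gray and 1.24 to 9.99 CPM in white matter libraries, so these values are near background.

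**Figure D3:**
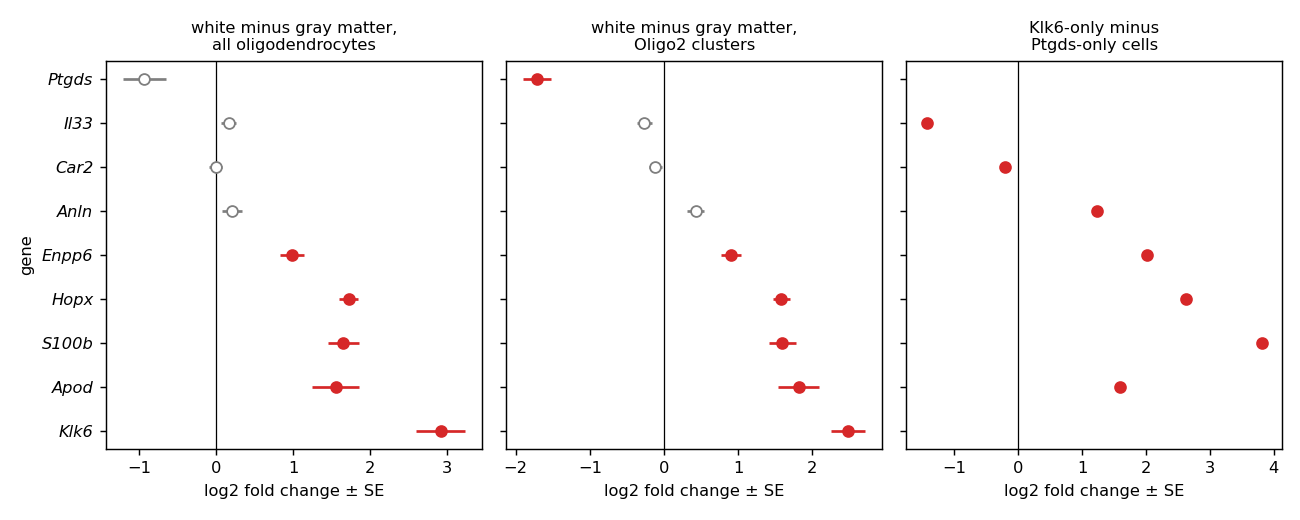
Log2 fold change with its SE (bars, where wider than the point) of each gene in white minus gray matter over all oligodendrocytes, the same in the Oligo2 clusters, and in Klk6-only minus Ptgds-only cells. Filled red points passed an adjusted p of 0.05 in edgeR, and *Ptgds* is at −1.71 in the Oligo2 clusters against −0.94 in all oligodendrocytes.

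The comparison of *Rag1*-/- with wild-type white matter asked whether the genes differ in mice without T and B cells. None of the 9 was called by edgeR (background 0.888%), with 3 at an unadjusted p under 0.05 (background 8.26%), and DESeq2 called 2, *Hopx* and *S100b* (background 1.52%). *Hopx* (0.49 ± 0.13, adjusted p = 0.25), *S100b* (0.77 ± 0.22, 0.30) and *Enpp6* (0.53 ± 0.18, 0.43) had higher values in each of the 3 *Rag1*-/- libraries than in both wild-type libraries. Such a lack of overlap between 3 and 2 libraries was found for 27.5% of all genes tested. *Klk6* had −0.07 ± 0.31 (adjusted p = 0.99) and *Ptgds* −0.54 ± 0.33 (0.75). Within the Oligo1 clusters and within the Oligo2 clusters, 0 of 9 were called (backgrounds 0.718% and 0.879%), by DESeq2 as well (0.955% and 0.956%), with 3 and 0 at an unadjusted p under 0.05 (6.2% and 6.15%). Without *Rag1*-/- white matter library 1, *Hopx* was called over all oligodendrocytes (0.61, adjusted p = 0.029), and *Enpp6* and *S100b* in Oligo1 (0.93 and 0.87, adjusted p = 0.020 and 0.045).

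Co-detection was measured in the 15533 oligodendrocytes that had 2000 UMIs or more, each thinned to 2000. Of these, 1220 (7.85%) held UMIs of both *Klk6* and *Ptgds*, 1252 (8.06%) held *Klk6* without *Ptgds*, 12004 (77.3%) held *Ptgds* without *Klk6* and 1057 (6.80%) held neither. *Ptgds* was thus the common state. How many *Klk6*-positive cells also held *Ptgds* depended on depth and threshold, with 4150 holding both and 551 *Klk6* alone without thinning, 270 and 1021 when at least 2 UMIs were asked of each gene, and 775 and 1697 above the 95th percentile of microglia-like cells. Among *Klk6*-positive cells of a library 42.8% to 100% held *Ptgds*, against 89.9% to 99.6% of *Klk6*-negative cells. The log2 odds ratio, which is 0 if both genes are detected independently and negative if they avoid each other, was −3.74 ± 0.92 (SD, n = 8) and below 0 in 8 of 8 libraries (exact two-sided sign-flip permutation test, p = 0.0078, the smallest it can give). Over the 5 pools of mice it was −3.69 ± 0.57 (exact p = 0.063, the smallest that 5 pools allow).

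The values by library ranged from −2.78 in wild-type white matter library 1 to −5.45 in the *Rag1*-/- gray matter library. In wild-type gray matter library 1 the negative value comes from the 0.5 added to every count, because all 9 *Klk6*-positive cells held *Ptgds*. Without that library the mean was −3.81 (exact p = 0.016 over 7 libraries). There 0 of 277 cells were positive for *Klk6* alone, which allows a share of up to 1.08%, and the double-positive cells were 1.00 times the number that independence gives. In the other 7 libraries they were 0.517 to 0.814 times that number. Full exclusion was therefore seen in no library. Without thinning, the log2 odds ratio was 1.15 in wild-type white matter library 1, where no cell held *Klk6* alone and the value rests on the added 0.5. It was below 0 in the other 7 libraries. The mean over all libraries, with wild-type white matter library 1 included, was −3.37 (exact sign-flip p = 0.016). The value of −3.01 in wild-type gray matter library 1 rests on the added 0.5 as well, since there no cell lacked *Ptgds*.

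*Ptgds* UMIs in cells of another type bear on the count of double-positive cells. At 2000 UMIs, 9.13% to 78.9% of microglia-like cells, which should lack *Ptgds*, held a UMI of it, against 81.6% to 99.6% of oligodendrocytes. The highest values were in wild-type gray matter library 1 (78.9%) and wild-type white matter library 1 (46.8%). Median UMIs per cell before thinning were 5427 to 8556 in microglia-like cells and 8669 to 12925.5 in oligodendrocytes. *Klk6* was found in 0% to 2.30% of microglia-like cells. The mean double-positive shares of Oligo1a (1.02%) and Oligo1c (1.77%) lie within that range and are not read as co-expression. A *Ptgds* share at or below that of microglia-like cells is read here as background, and in wild-type gray matter library 1 the microglia-like share was 78.9% against 99.6% of oligodendrocytes. The source of these UMIs was not tested. Counting a cell as positive only above the 95th percentile of microglia-like cells gave a log2 odds ratio of −3.74 (exact p = 0.0078).

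The amount of *Ptgds* fell with the amount of *Klk6* in a cell. Over the libraries with enough cells, the mean *Ptgds* UMIs of 2000 were 23.2 ± 10.5 in cells with 0 *Klk6* UMIs (n = 8), 7.31 ± 3.38 with 1 (n = 7), 1.94 ± 0.69 with 2 to 4 (n = 6) and 0.712 ± 0.181 with 5 or more (n = 4). Every library with more than 1 of these classes showed the same order. Microglia-like cells held 0.102 to 1.61 *Ptgds* UMIs on average. Cells with 5 or more *Klk6* UMIs, at 0.488 to 0.901, were thus above the microglia-like level of their own libraries, 0.102 to 0.339, in each of 4 libraries.

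**Figure D4:**
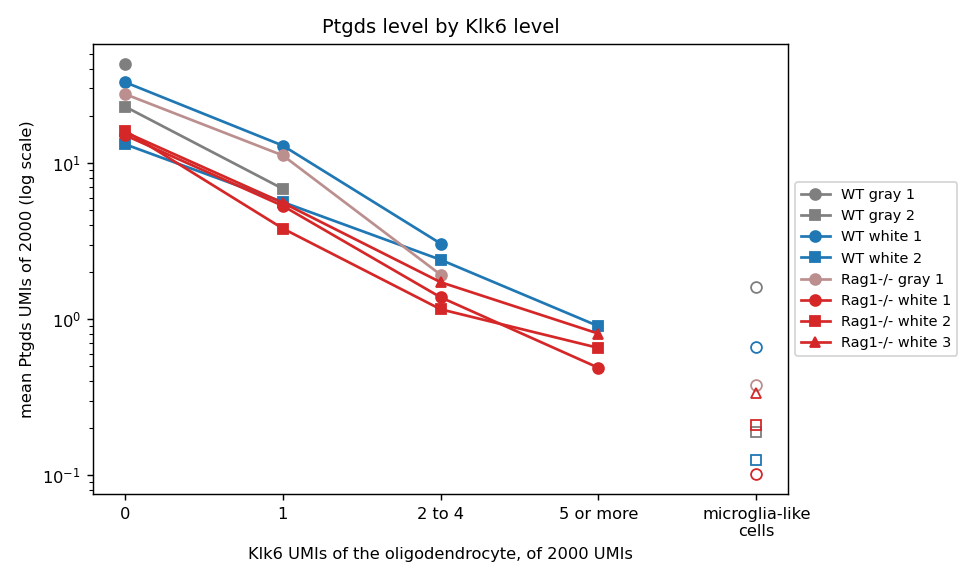
Mean *Ptgds* UMIs of 2000 per cell (log axis) in oligodendrocytes grouped by their *Klk6* UMIs, with 1 line per library, and in microglia-like cells of the same library (open symbols). The mean over libraries falls from 23.2 at 0 to 0.712 at 5 or more *Klk6* UMIs.

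The share of *Klk6*-positive cells was 2.97% ± 0.39 in gray (n = 3) and 17.1% ± 3.14 in white matter (n = 5), a difference of 14.1 percentage points (exact two-sided permutation test, p = 0.036, the smallest that 5 against 3 allow). In the lone *Rag1*-/- gray matter library it was 3.13% (33 of 1053 cells, 95% Wilson interval 2.24% to 4.37%, counting error only). The share of *Ptgds*-positive cells was 97.8% ± 1.65 in gray and 84.6% ± 4.52 in white matter, lower by 13.1 points, and double-positive cells were 2.16% ± 0.94 and 8.87% ± 2.13, higher by 6.71 points (exact p = 0.036 each). All 5 white matter libraries lay beyond all 3 gray matter libraries in these 3 shares. The size of the double-positive difference moved with depth and threshold, from 1.62 points with at least 2 UMIs and 2.98 at 1000 UMIs to 11.8 at 4000 UMIs and 21.0 without thinning, with an exact p of 0.036 in each. The log2 odds ratio was −4.50 ± 1.14 in gray and −3.28 ± 0.36 in white matter, a difference of 1.22 that did not pass (exact p = 0.14) and was 0.66 when the cells were thinned with another random seed. Over the 3 pools with both tissues the differences were 13.4, −11.7, 7.05 and 1.37, each with exact p = 0.25, the smallest that 3 pools allow. Within wild type, 2 against 2 libraries cannot go below an exact p of 0.33.

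Between genotypes in white matter, *Klk6*-positive cells were 17.2% ± 3.44 in *Rag1*-/- (n = 3) and 16.9% ± 3.96 in wild type (n = 2), and this difference of 0.305 points was within the spread (exact permutation p = 0.80). Double-positive cells were 7.76% ± 2.12 and 10.5% ± 0.15, and the log2 odds ratio was −3.53 ± 0.14 and −2.91 ± 0.19 (exact p = 0.20 for both, the smallest that 3 against 2 allow). In both measures every *Rag1*-/- library lay below both wild-type libraries. For the double-positive share that order was lost with another seed (exact p = 0.60), at 1000 and 4000 UMIs (0.40 each) and without thinning (0.80), and for both measures when ARO and IRO cells were left out (0.40 each). Further, *Ptgds* in microglia-like cells was highest in wild-type library 1, and its part in these differences was not tested. The odds ratio difference of −0.61 became −3.24 without thinning, where wild-type library 1 had no cell with *Klk6* alone.

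Single clusters showed where the 2 transcripts met. Of the Klk6-only cells, 60.0% were Oligo2a and 25.8% Oligo2c. Of the double-positive cells, 31.8% were ARO, 20.7% Oligo2a, 15.7% Oligo2c and 14.8% Oligo2b. Of the Ptgds-only cells, 24.8% were Oligo1c, 23.2% Oligo1a, 17.6% Oligo2b and 15.1% Oligo1b. Oligo2a had 40.4% ± 13.6 of its cells with *Klk6* alone, 17.4% ± 6.94 with both, 20.4% ± 11.3 with *Ptgds* alone and 21.8% ± 5.01 with neither (n = 7), so on average no class held most of its cells, although *Klk6* alone reached 50.8% in a library. Oligo2c was similar, with 31.2% ± 5.86, 22.8% ± 6.49, 31.1% ± 3.06 and 14.9% ± 3.74 (n = 5). In ARO *Klk6* alone was found in 2.66% ± 1.85 and both in 16.3% ± 3.75 of cells.

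Within clusters the avoidance was weaker. The log2 odds ratio was −0.93 ± 0.47 in Oligo2a (n = 7), −1.54 ± 0.39 in Oligo2c (n = 5), −1.56 ± 1.23 in Oligo2b (n = 8) and −1.85 ± 0.81 in ARO (n = 5), and below 0 in every library of these clusters. In Oligo2b of both wild-type gray matter libraries no cell held *Klk6* alone, and there the value rests on the 0.5 added to every count. The clusters were built from cells in which both genes vary, and these values are a description. In the Oligo1 clusters and IRO most libraries had a class without cells, so that the value rests on the added 0.5. Where each class had at least 1 cell, the log2 odds ratio in Oligo1c was −1.53 in wild-type white matter library 2 and −2.05 and −1.14 in *Rag1*-/- white matter libraries 1 and 3, and in wild-type white matter library 2 it was −4.36 in Oligo1b and −2.61 in IRO, with 1 to 4 Klk6-only cells in each.

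**Figure D5:**
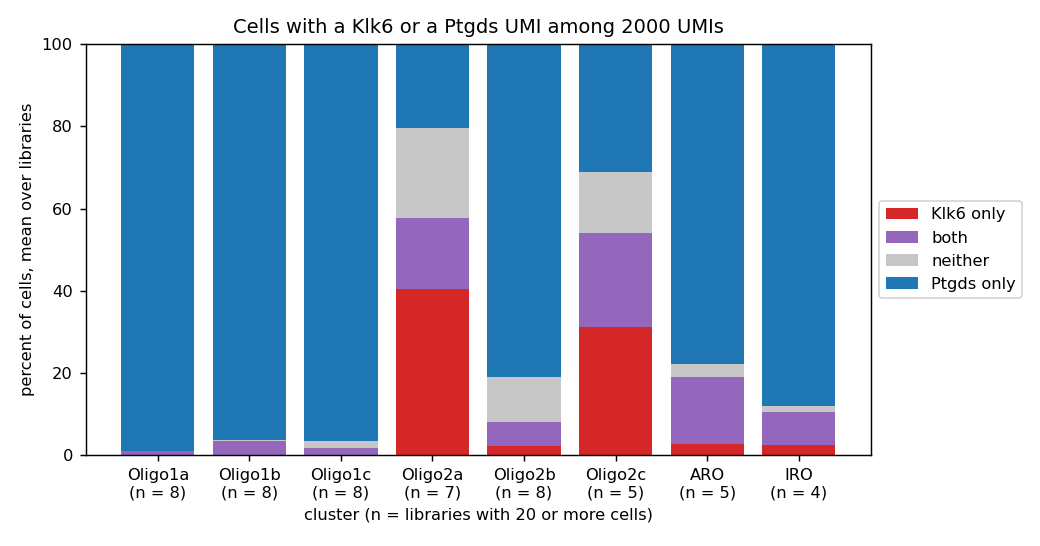
Share of the cells of each cluster with a UMI of *Klk6* only, both genes, neither or *Ptgds* only, at 2000 UMIs, as the mean over the n libraries with 20 or more cells. Klk6-only cells reach 40.4% in Oligo2a and 31.2% in Oligo2c. Double-positive cells without many Klk6-only cells are most frequent in ARO and are seen at lower shares in IRO, Oligo2b and the Oligo1 clusters. In Oligo1a and Oligo1c the mean shares, 1.02% and 1.77%, lie within the range of *Klk6*-positive microglia-like cells and are not read as co-expression.

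To see what goes with exclusion, Klk6-only and Ptgds-only cells were summed in the 4 white matter libraries with enough of both, wild-type library 2 and *Rag1*-/- libraries 1 to 3, and compared with the library as a block. All 7 genes that did not define the classes differed. *S100b*, *Hopx*, *Enpp6*, *Apod* and *Anln* were higher and *Il33* and *Car2* lower in Klk6-only cells, against a background of 43.8% of genes called, 22.4% higher and 21.4% lower. *S100b* was at 1540, 1739, 2109 and 2019 CPM in Klk6-only cells and 98.1, 114, 139 and 175 in Ptgds-only cells of the 4 libraries. Its log2 fold change of 3.82 ± 0.05 (edgeR) was the largest of the 7. Over all libraries, 60.0% of Klk6-only cells were Oligo2a and 25.8% Oligo2c, against 1.85% and 2.45% of Ptgds-only cells. The classes thus largely repeat the contrast between clusters, and the study itself used *S100b* as a marker of Oligo2. Directions and calls here are therefore a description and not independent evidence. *Hopx* followed with 2.63 ± 0.04, *Enpp6* with 2.02 ± 0.05, *Apod* with 1.60 ± 0.04 and *Anln* with 1.24 ± 0.03. The order of the classes was the same in all 4 libraries for each of these genes.

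*Il33* was at 805, 645, 466 and 515 CPM in Klk6-only and 1714, 1802, 1488 and 1469 in Ptgds-only cells, a log2 fold change of −1.44 ± 0.05. The classes did not overlap. *Car2* differed by −0.20 ± 0.02, with 3945 to 4401 CPM in Klk6-only and 4547 to 5011 in Ptgds-only cells. Without the block *Car2* was not called and the other 6 were. Klk6-only cells had more UMIs before thinning than Ptgds-only cells, with medians of 14364 and 9489, and the part of depth in these differences was not tested. Among genes with a mean of at least 10 CPM and 1 direction in all 4 libraries, those highest in Klk6-only cells included *Art3* (6.68 ± 0.15), *Slc9b2*, *Adgrg6* and *St8sia5* (5.09 to 5.95). The 5 lowest were *Kit* (−5.67 ± 0.28), the receptor of stem cell factor, and *7630403G23Rik*, *Kirrel3*, *Gfra1* and *Gm48678* (−4.04 to −4.52).

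The study's own lists of Oligo1 and Oligo2 markers came from Smart-seq2 cells of the same project, so they are not independent evidence of a direction. The genes described here were taken out of both lists. Of the 13 genes left of the Oligo1 list, 0 rose and 9 fell in white matter averaged over genotypes (median −0.82, background 2.02% higher and 1.22% lower), led by *Sparcl1* (−1.96 ± 0.38), *Ptpn13* (−1.94 ± 0.15) and *Dab1* (−1.55 ± 0.16). Of the 46 genes left of the Oligo2 list 45 could be tested, and 19 rose and 0 fell (median 0.71), led by *Serpind1* (2.77 ± 0.26), *Uchl1* (1.97 ± 0.27) and *Ncs1* (1.86 ± 0.27). In Klk6-only against Ptgds-only cells, 12 of the 13 were lower and 45 of the 45 higher, against backgrounds of 21.4% and 22.4%. Between genotypes in white matter 1 gene of the 45 was called, *Slc25a27*, higher in *Rag1*-/- (1.94 ± 0.13, adjusted p = 5.6e-05, edgeR, background 0.888%).

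Genes of the same pathways and families were followed as well. Of 9 tested genes of prostaglandin synthesis and its receptors, 2 kallikreins, 3 genes of the interleukin-33 receptor pathway and 6 other carbonic anhydrases, 0 were called between tissues (background 3.24%) or between genotypes (background 0.888%) by edgeR, and 0 by DESeq2 (backgrounds 4.53% and 1.52%). At an unadjusted p under 0.05 these lists held 1, 0, 2 and 1 genes between tissues and 0, 0, 1 and 0 between genotypes, against 15.1% and 8.26% of all genes. With lists this short, counts of 0 are near the background. Of 6 other S100 genes and their receptor, *S100a6* rose in white matter (1.02 ± 0.14, adjusted p = 0.0066). In Klk6-only against Ptgds-only cells, where 43.8% of all genes were called (22.4% higher and 21.4% lower), 1 of 8 prostaglandin genes, 2 of 2 kallikreins and 3 of 4 carbonic anhydrases were higher, and 1 of 3 genes of the interleukin-33 receptor pathway was lower. *Pla2g4a*, also on the study's Oligo2 list, the phospholipase that releases arachidonic acid upstream of prostaglandins, was higher by 1.84 ± 0.06, *Klk8* by 2.56 ± 0.38 and *Klk10* by 2.02 ± 0.40. Of 5 S100 genes tested there 4 were higher and 1 lower. *Car5b* (1.63 ± 0.30), *Car13* (0.86 ± 0.14), *Car14* (0.42 ± 0.04) and *S100a16* (0.62 ± 0.03) were higher too. *S100a10* (−1.03 ± 0.26) and *Il1rap*, the co-receptor of interleukin-33 (−0.12 ± 0.04), were lower.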

How the data were processed

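Single cells from both tissues of wild-type and *Rag1*-/- mice, all aged 24 months, were profiled by 10× 3′ sequencing. The UMI counts per gene and cell are as the authors deposited them, made per the labels with Cell Ranger 4 on mm10 (the study's methods name a different version for the wild-type experiment and for each *Rag1*-/- batch), with the authors' filters on cells and their cluster names. Doublets were not called again. The wild-type and *Rag1*-/- tables list different genes, and 17001 of 20354 genes are listed for both. In the microglia table, 8171 cells of 4 libraries of another series were not used.

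Counts were summed per library and tested with edgeR 4.0.16 (filterByExpr, TMM, quasi-likelihood test, all 4 groups in 1 fit, Benjamini-Hochberg over all genes tested) in R 4.3.3, with DESeq2 1.42.0 as an alternative. Shares of cells were computed after thinning every cell to 2000 UMIs (71 shallower cells left out) and compared by exact permutation over libraries (Python 3.11.15, scipy 1.17.1). Odds ratios had 0.5 added to each count. Intervals and limits for a count of 0 cover counting error only. Microglia-like and other cells outside the oligodendrocyte table were named from at least 3 markers, a rule that took in 97.7% of 7421 cells the authors named microglia. The scripts were tested on simulated data.

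The 9 genes, the marker lists and the lists of partner genes were chosen with earlier results of these data known. Named genes besides the 9 are those whose pattern over clusters was most alike (5 for *Klk6* and *Ptgds*, 3 for the others, the nearest being named), the 5 largest changes in each direction between Klk6-only and Ptgds-only cells (1 of them is not reported here), and up to 3 of the largest called changes of each list in a contrast. Wild-type gray and white matter libraries of the same number were taken to come from the same mice, by genotype and batch in the titles. Their deviations from the group means correlated (r = 0.428 for both pairs, which are equal by construction). The mouse pool was therefore used as a block in a second fit. Other alternatives were size factors, no filter, cells with at most 15000 UMIs, other thinning depths, stricter positivity and leaving out each library.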

Additional observations from a re-analysis of the deposited data

How the results depend on the processing

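Size factors changed no count of called genes by over 1.5 times. In cells with at most 15000 UMIs the genes called between white and gray matter were 0 in wild type, 0 in *Rag1*-/- and 3 averaged over genotypes. Without a filter on low counts they were 4 in *Rag1*-/- and 3 within Oligo1. DESeq2 called 4 in *Rag1*-/-, 2 within Oligo1 and 2 between genotypes (background 1.52% for the last). For the other counts of DESeq2 given here, the limit of 15000 UMIs and the missing filter, the share of all genes called was not counted. With the mouse pool as a block, the counts were 7 in wild type, 7 in *Rag1*-/-, 8 averaged, 6 within Oligo1 and 1 for the difference of the tissue effect. The backgrounds were 10%, 5.26%, 13.6%, 8.13% and 0.283%. The blocked fit leaves 1 residual degree of freedom, and its *Rag1*-/- count rests on 1 pair of libraries. No conclusion is drawn from these counts. In the paired comparison over 3 pools, the shares of *Klk6*-positive, *Ptgds*-positive and double-positive cells differed by 13.4, −11.7 and 7.05 points (exact p = 0.25, the smallest possible). Without thinning, the *Ptgds*-positive share differed by −3.54 points (exact permutation p = 0.11). Over all thinning depths and thresholds the *Klk6*-positive share differed by 7.86 to 24.1 points between tissues. The cause of these changes was not tested.

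The following log2 fold changes turned direction without a call. *Il33* in *Rag1*-/- was at 0.072 with at most 15000 UMIs and 0.17 with the block, *Apod* in the difference of the tissue effect at −0.41 with the block (0.48 without it), and *Klk6* between genotypes at 0.10 with at most 15000 UMIs. Within Oligo1, *Klk6* between genotypes was at −0.014 with the batch number as a block. Within Oligo2, *Anln* and *Il33* between genotypes were at −0.046 and 0.048 with at most 15000 UMIs. The *Klk6*-positive share between genotypes was at −0.0838 points at 1000 UMIs and −0.816 at 4000.

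Leaving out each library in turn gave 0 to 4 called genes in wild type (0 without gray matter library 2), 1 to 5 in *Rag1*-/- (5 without its white matter library 1), 3 to 6 averaged (3 without wild-type gray matter library 2), 0 to 1 between genotypes, 1 to 2 within Oligo1, 0 to 2 within Oligo1 between genotypes, and 6 to 8 within Oligo2. The white against gray matter differences ranged from 13.1 to 14.9 points for *Klk6*-positive, −15.1 to −12.2 for *Ptgds*-positive and 6.27 to 7.30 for double-positive cells, and the log2 odds ratio from −3.88 to −3.49. The difference of the odds ratio between tissues ranged from 0.74 to 1.85 under these omissions, and was 0.66 with another seed, 0.44 at 1000 UMIs and 0.39 with at least 2 UMIs. Between genotypes the ranges were −2.50 to 3.10, −10.1 to −0.371 and −3.98 to −2.14 points, and −0.75 to −0.48 for the odds ratio. A group left with 1 library borrows the spread of the other groups. The share of all genes called was not counted for these omissions. Without the lone *Rag1*-/- gray matter library, contrasts that need it could not be fitted.

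Under the same omissions, log2 fold changes that turned direction had these ranges, all without a call. Between tissues, *Car2* ran from −0.047 to 0.099 and *Anln* from −0.084 to 0.37 in wild type, *Il33* from −0.11 to 0.026 in *Rag1*-/-, and *Car2* from −0.053 to 0.023 averaged and −0.10 to 0.028 within Oligo1. Between genotypes in white matter, *Ptgds* ran from −1.04 to 0.26, *Apod* from −0.37 to 0.18 and *Klk6* from −0.45 to 0.47. In the difference of the tissue effect, *Ptgds* ran from −0.85 to 0.45, *Anln* from −0.11 to 0.33 and *Klk6* from −0.75 to 0.17. Between genotypes within Oligo1, *Ptgds* ran from −1.09 to 0.26, *Klk6* from −0.33 to 0.73, *Apod* from −1.15 to 0.35 and *Il33* from −0.027 to 0.30. Within Oligo2, *Ptgds* ran from −0.87 to 0.051, *Anln* from −0.093 to 0.15, *Apod* from −0.54 to 0.070, *Klk6* from −0.50 to 0.15 and *Car2* from −0.0054 to 0.066.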

Other observations

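Outside oligodendrocytes the genes differed in how far they were shared with other cells of the same libraries. As a mean over libraries, *Klk6* was at 0 to 19.4 CPM in every other class of cells, against 27.8 to 380 CPM in the oligodendrocytes of each library. *Enpp6* was at most 5.89 CPM elsewhere and *Anln* at most 32.2 CPM. *Hopx* was higher in astrocyte-like cells, at 571 ± 84.6 CPM (n = 6), than in oligodendrocytes, at 101 to 438 CPM, and was also found in choroid plexus-like (230 ± 22.8, n = 2) and T-cell-like cells (205 ± 12.9, n = 2). *S100b* was at 638 ± 188 CPM in OPC-like (n = 2) and 347 ± 59.7 in astrocyte-like cells (n = 6), against 108 to 627 in oligodendrocytes. *Car2* was at 969 ± 67.9 CPM in choroid plexus-like and 643 ± 146 in astrocyte-like cells, against 4392 to 4841 in oligodendrocytes. *Ptgds* was at 1651 ± 49.1 CPM in choroid plexus-like cells, a known source of the protein in cerebrospinal fluid.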
